A study of Mus musculus with 6 samples.

Results

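The 8 genes described here encode the insulin receptor (Insr), its docking proteins (Irs1 and Irs2), the kinases AKT1 and AKT2 (Akt1 and Akt2) and the forkhead transcription factors FOXO1, FOXO3 and FOXO4 (Foxo1, Foxo3 and Foxo4). They were chosen by symbol and not by a cut on their values, but with earlier results of these data known. They are 8 of 39179 genes in the deposited files. The samples were liver tumours of wildtype C57BL/6 mice. Tumours had been induced by hydrodynamic injection, in which a large fluid volume pushed quickly into the tail vein carries DNA into hepatocytes. The injected DNA was in transposons, elements that integrate into chromosomes, and these encoded Myc together with NrasG12V, a constantly active mutant of Nras (Myc/NrasG12V, 3 libraries), or Myc together with Akt1 (Myc/Akt1, 3 libraries). Both groups thus carry Myc, and Akt1 is itself a delivered gene in 1 of them. The labels do not give the form or species of the Akt1 cDNA, the promoter driving it, the age or sex of the mice, or whether each sample is its own animal. The p-values therefore measure only the spread between these samples, which may be technical. Means are given ± SD over the 3 libraries of a group (n = 3).

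Insulin binds its receptor, a tyrosine kinase of the cell surface, which phosphorylates IRS1 and IRS2. These recruit PI3K, whose lipid product brings AKT to the membrane, where PDK1 and the mTORC2 complex switch it on. Active AKT phosphorylates FOXO proteins, which then bind 14-3-3 proteins and leave the nucleus. In the fasted liver, nuclear FOXO1 raises genes of glucose production and Irs2, and in the fed liver this stops. Most of this control acts on proteins and is not read by mRNA levels.

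The libraries held 17881282 to 27865094 reads in genes. Values are read counts scaled to a common library total (CPM), and 3 reads, the limit that a count of 0 allows, were 0.108 to 0.168 CPM (counting error only). Of 14365 genes tested with limma on log2(CPM + 1), 39.5% differed between the groups at an adjusted p under 0.05. Higher in Myc/NrasG12V were 10.0%, and higher in Myc/Akt1 29.5%. The median gene had a log2 difference (Myc/NrasG12V minus Myc/Akt1 throughout) of -0.26 on the CPM scale and 0.00 with TMM factors, which correct for a few abundant genes that take up reads. Of the calls, 74.7% were toward Myc/Akt1 on the CPM scale and 52.4% with TMM factors. Each difference below is on the CPM scale unless it is said to be with TMM factors. On the second principal component 1 library, Myc/NrasG12V replicate 3, lay away from the other 2 of its group. Without it 6298 genes differed in place of 5677.

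Hepatocyte markers, which define the labelled tissue, were abundant. All 10 were tested, 4 were higher in Myc/NrasG12V, and their summed level was 154200 to 200927 CPM in Myc/NrasG12V and 49359.9 to 63064 CPM in Myc/Akt1. Markers of other cells were in part higher in Myc/NrasG12V. That held for 8 of 9 tested neutrophil genes (summed 33.1 to 204 CPM against 3.73 to 4.79 CPM) and 7 of 9 erythroid genes (277 to 1701 CPM against 49.0 to 96.8 CPM). It also held for 4 of 10 macrophage genes (239 to 411 CPM against 172 to 226 CPM), 4 of 7 T, NK and B cell genes (12.5 to 31.2 CPM against 5.98 to 8.90 CPM) and 2 of 7 tested cholangiocyte genes (784 to 1329 CPM against 144 to 276 CPM). Stellate cell genes were at 524 to 633 CPM against 386 to 624 CPM, with 2 of 10 higher in Myc/NrasG12V. Endothelial genes were at 212 to 303 CPM against 237 to 284 CPM, with 3 of 10 higher in the former and 1 in the latter. For comparison, 10.0% of all tested genes were called toward the NrasG12V group and 29.5% toward the Akt1 group. Stellate calls were 20% of their list, and endothelial calls 30% and 10% in these directions. With so few genes per list and no set test, these counts only describe the markers. No marker in the files was at 0 reads throughout a group. Neutrophil and T, NK and B cell genes were low in Myc/Akt1, and the filter of 0.457 CPM needed only 3 libraries. Such genes could be tested through their Myc/NrasG12V level alone, so their counts are a description and not independent support. In bulk tissue, fewer cells of a type and less RNA per cell cannot be told apart, and the part of these cells in the results below was not tested.

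Of the 8 genes, all tested, 1 differed between the groups, Akt1, against 39.5% of all tested genes. The other 7 lay within 0.57 of 0 on the log2 scale. The median of the 8 was 0.06, against -0.26 for all tested genes. The 1 gene past the test was thus the kinase that had been delivered. Intervals for those 7 still allowed changes, as given with each gene.

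**Figure D1:**
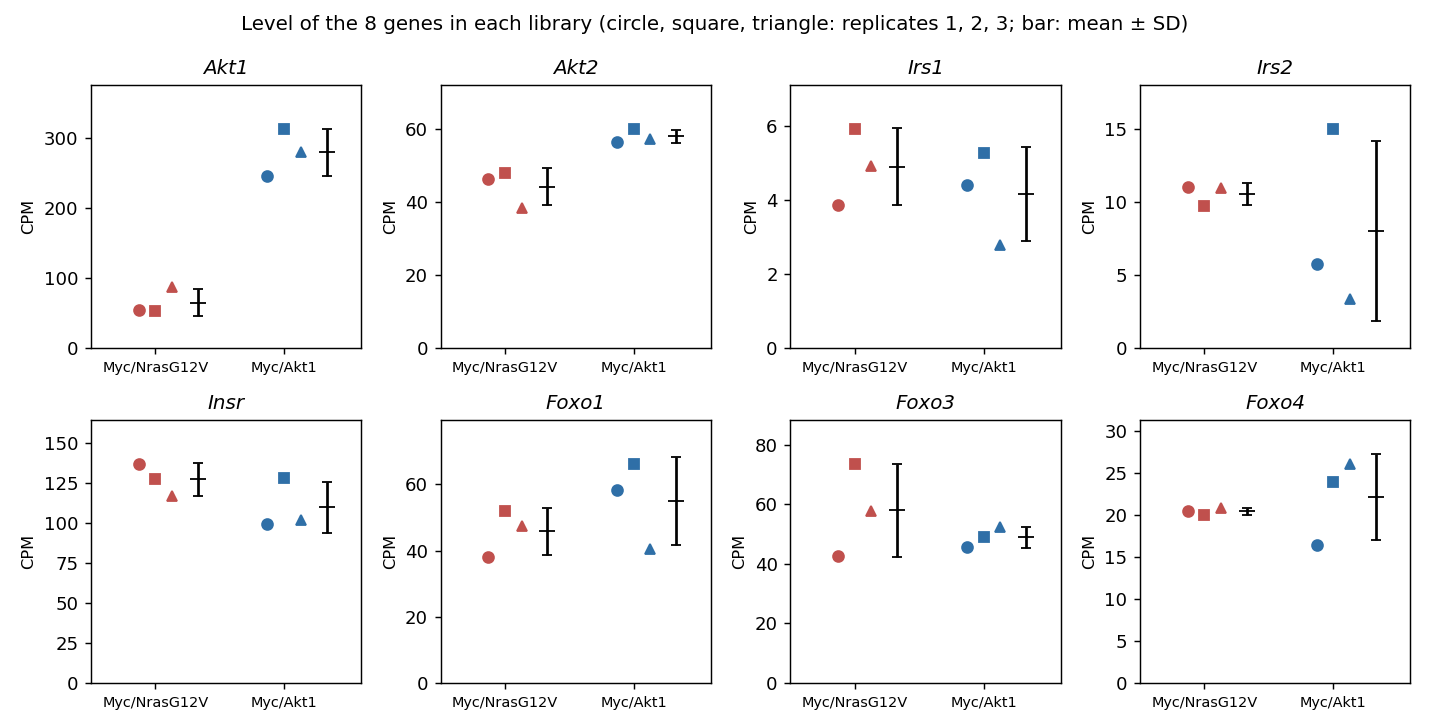
Level in CPM of each of the 8 genes in each library, with Myc/NrasG12V in red and Myc/Akt1 in blue, circles, squares and triangles for replicates 1, 2 and 3, and the group mean ± SD as a black bar beside them. The y axes start at 0 and differ in scale. Akt1 and Akt2 are the genes whose groups do not overlap on this scale.

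Insr encodes the insulin receptor (ENSMUSG00000005534, chromosome 8, 3122061 to 3279617, GRCm38, minus strand). Its level was 137, 128 and 117 CPM in Myc/NrasG12V replicates 1, 2 and 3, and 99.6, 128 and 102 CPM in Myc/Akt1. Myc/Akt1 replicate 2 was as high as the Myc/NrasG12V libraries, and the groups overlapped. The means were 127 ± 10.1 CPM and 109.95 ± 16.0 CPM, with a log2 difference of 0.22 (95% interval -0.16 to 0.60, limma adjusted p = 0.336). This call depended on the scaling. With TMM factors the log2 difference was 0.53 (95% interval 0.13 to 0.93, limma adjusted p = 0.0483), and every Myc/NrasG12V library lay above every Myc/Akt1 library. Median-of-ratios factors gave 0.53 with a limma adjusted p of 0.0501.

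Irs2, the docking protein that carries much of insulin's signal in liver (ENSMUSG00000038894, chromosome 8, 10984681 to 11008458, minus strand), was even in one group and scattered in the other. The Myc/NrasG12V libraries held 11.03, 9.73 and 10.96 CPM, and the Myc/Akt1 libraries 5.77, 15.04 and 3.36 CPM. Myc/Akt1 replicate 2 had the highest value of all 6 libraries and replicates 1 and 3 the lowest 2. The log2 difference was 0.57 (95% interval -0.40 to 1.54, limma adjusted p = 0.320). Without Myc/Akt1 replicate 2 it was 1.09 (limma adjusted p = 0.0305), and without Myc/Akt1 replicate 3 it was 0.15 (limma adjusted p = 0.780), so the value moved with which of these libraries was left out.

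Irs1, the docking protein best known from muscle and fat (ENSMUSG00000055980, chromosome 1, 82233101 to 82291416, minus strand), was the least abundant of the 8. It was at 3.87, 5.92 and 4.92 CPM in Myc/NrasG12V and 4.41, 5.28 and 2.77 CPM in Myc/Akt1, from 298 and 312 reads per group. The groups overlapped, with a log2 difference of 0.21 (95% interval -0.40 to 0.82, limma adjusted p = 0.559). Irs1 made up 31.6 ± 5.96% of the reads of Irs1 and Irs2 in Myc/NrasG12V and 38.2 ± 10.6% in Myc/Akt1 (exact permutation p = 0.3, two-sided). A share within a library does not move with its scaling. With 3 against 3 libraries the smallest p this test can give is 0.1.

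Akt1, the delivered kinase gene (ENSMUSG00000001729, chromosome 12, 112653821 to 112674884, minus strand), was at 55.2, 52.9 and 87.1 CPM in Myc/NrasG12V and at 246, 314 and 280.2 CPM in Myc/Akt1. All Myc/Akt1 libraries lay above all Myc/NrasG12V libraries, and Myc/NrasG12V replicate 3 was the highest of its group. Akt1 rose 4.30-fold in Myc/Akt1, with a log2 difference of -2.12 (SE 0.22, 95% interval -2.62 to -1.62, limma adjusted p = 2.63e-04). Of all tested genes, 5.23% had a larger log2 difference in either direction. Without Myc/NrasG12V replicate 3 the difference was -2.35, and with TMM factors it was -1.81. Reads of the delivered and the resident gene are counted together here, as far as both map to the mouse gene.

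Akt2, the AKT kinase that carries insulin's effect on glucose in liver (ENSMUSG00000004056, chromosome 7, 27591552 to 27640826, plus strand), was delivered in neither group. It was at 46.3, 48.1 and 38.5 CPM in Myc/NrasG12V and 56.6, 60.2 and 57.4 CPM in Myc/Akt1. There was no overlap in CPM, as for 52.7% of all tested genes, but the log2 difference of -0.39 did not pass (95% interval -0.75 to -0.02, limma adjusted p = 0.0842). With TMM factors the groups overlapped and the difference was -0.08 (limma adjusted p = 0.749). Against the median gene at -0.26, Akt2 thus lay close to the shift of the whole table.

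Of the reads of Akt1 and Akt2, Akt1 made up 54.4, 52.4 and 69.4% in Myc/NrasG12V and 81.3, 83.9 and 83.0% in Myc/Akt1. The means were 58.7 ± 9.28% and 82.7 ± 1.33%, a difference of 24.02 percentage points. The shares did not overlap (exact permutation p = 0.1, two-sided, the smallest possible, and 0.5 after Benjamini-Hochberg adjustment over 5 shares). Counted per kilobase of exon, the shares were 71.0 ± 7.66% and 89.3 ± 0.890%. Akt1 was thus the more abundant of both transcripts in each library of either group.

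**Figure D2:**
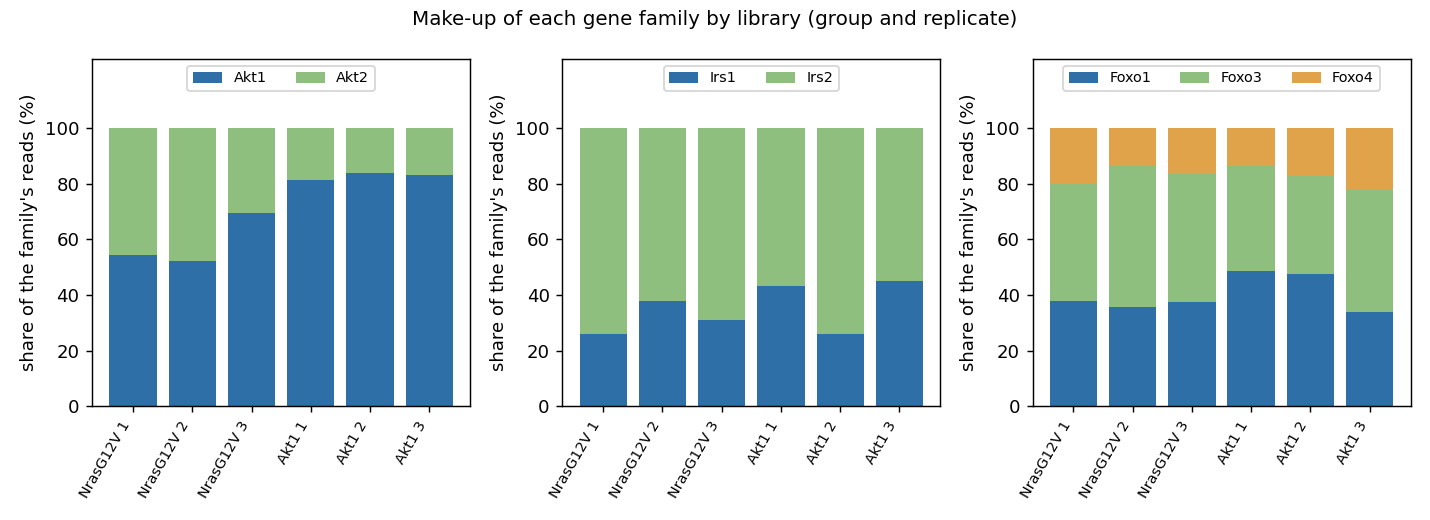
Share in percent of the reads of each gene family taken by each of its genes, 1 stacked bar per library, labelled by group and replicate, for the AKT, IRS and FOXO genes. Akt1 takes 52.4 to 69.4% of the reads of Akt1 and Akt2 in Myc/NrasG12V and 81.3 to 83.9% in Myc/Akt1, while the IRS and FOXO shares overlap between the groups.

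The FOXO genes encode the factors that AKT shuts out of the nucleus. Foxo1, the main FOXO of glucose production in liver (ENSMUSG00000044167, chromosome 3, 52268336 to 52353221, plus strand), was at 38.2, 52.0 and 47.4 CPM in Myc/NrasG12V and 58.3, 66.3 and 40.4 CPM in Myc/Akt1. The Myc/Akt1 group held both the highest values and, in replicate 3, the second lowest. The log2 difference was -0.24 (95% interval -0.75 to 0.27, limma adjusted p = 0.426), and its sign turned with TMM factors (0.07).

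Foxo3, linked to stress resistance and survival (ENSMUSG00000048756, chromosome 10, 42181841 to 42276755, minus strand), was at 42.5, 73.6 and 57.7 CPM in Myc/NrasG12V and 45.5, 48.9 and 52.5 CPM in Myc/Akt1. The Myc/NrasG12V libraries held both the lowest and the highest value. Its log2 difference was 0.21 (95% interval -0.28 to 0.70, limma adjusted p = 0.476). With TMM factors it was 0.52 and the groups no longer overlapped, but the call still failed (limma adjusted p = 0.0992).

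Foxo4, a shorter FOXO encoded on the X chromosome (ENSMUSG00000042903, 101254528 to 101260873, plus strand), was the steadiest of the 8 in Myc/NrasG12V, at 20.4, 20.02 and 20.8 CPM. In Myc/Akt1 it was at 16.4, 23.9 and 26.1 CPM, below and above that band. The log2 difference was -0.09 (95% interval -0.57 to 0.40, limma adjusted p = 0.779), and with TMM factors 0.22. Summed over the 3 genes, FOXO transcripts were at 124 ± 22.3 CPM and 126 ± 11.3 CPM. Foxo3 made up 46.2 ± 4.26% of them in Myc/NrasG12V and 39.0 ± 4.61% in Myc/Akt1 (exact permutation p = 0.2), and Foxo1 37.0 ± 1.16% and 43.4 ± 8.19% (exact permutation p = 0.4). Foxo4 took the rest, at 16.8 ± 3.23% and 17.6 ± 4.17% (exact permutation p = 0.8).

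**Figure D3:**
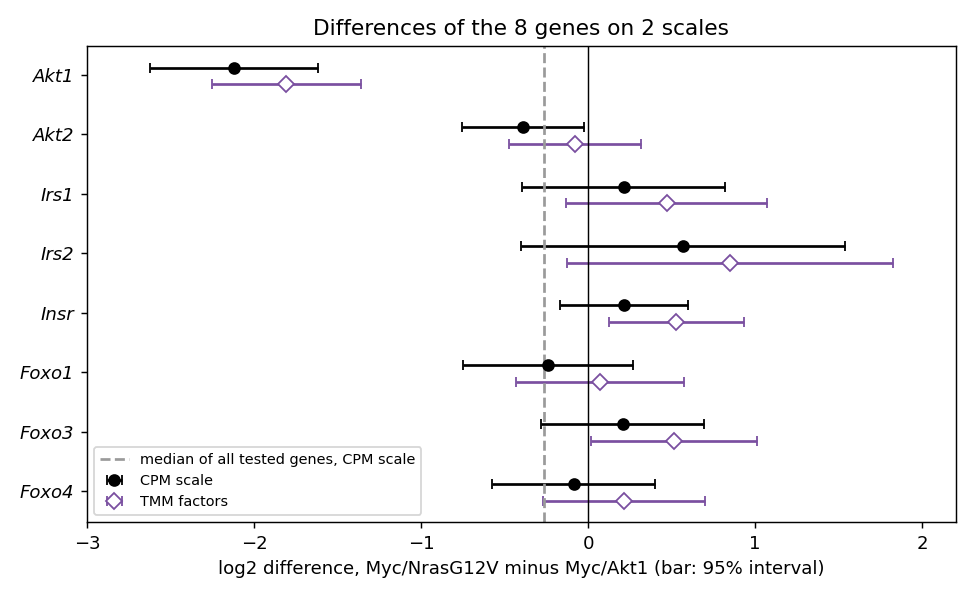
Log2 difference, Myc/NrasG12V minus Myc/Akt1, of each of the 8 genes with its 95% interval, on the CPM scale (filled circles) and with TMM factors (open diamonds). The dashed line is the median of all tested genes on the CPM scale, -0.26. Akt1 stands at -2.12 and -1.81, and Insr is the gene whose call changes with TMM factors.

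Levels of different genes were compared as CPM per kilobase of merged exons. In Myc/NrasG12V the order was Akt1 (15.9 ± 4.66), Insr (9.26 ± 0.737), Foxo3 (7.66 ± 2.06), Akt2 (6.21 ± 0.717), Foxo4 (5.85 ± 0.113), Foxo1 (5.29 ± 0.812), Irs2 (1.67 ± 0.115) and Irs1 (0.536 ± 0.112). The libraries of Akt1, Irs2 and Irs1 did not overlap those of their neighbours in that order, and the 5 genes from Insr to Foxo1 overlapped each with the next. In Myc/Akt1 Akt1 stood at 68.3 ± 8.25 CPM per kilobase, followed by Akt2 at 8.15 ± 0.261 and Insr at 7.999 ± 1.17, which overlapped. The FOXO genes came next, at 6.35 ± 1.53 to 6.47 ± 0.463, overlapping each other, then Irs2 at 1.27 ± 0.975 and Irs1 at 0.454 ± 0.139, which overlapped. The docking protein genes were in both groups the lowest 2 per kilobase. Genes on the opposite strand that share exonic bases with Foxo1, Irs1 and Irs2 held at most 0.108 CPM.

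By the rule for like patterns, the genes whose log2(CPM + 1) followed Akt1 most closely over the 6 libraries were Rnpep, an aminopeptidase (Pearson r = 0.998), Dnph1, a nucleotide hydrolase (0.998), and Anapc2, a subunit of the anaphase-promoting complex (0.998), of 10053 genes searched. These r describe 6 points in 2 groups, and 889 of the genes searched had an r over 0.95. Their log2 differences were -1.16, -1.07 and -0.64, each smaller than that of Akt1.

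Of 10 relatives outside the 8 genes, 7 were tested, of which 2 rose in the NrasG12V group and 1 in the Akt1 group. In CPM these were 28.6% and 14.3% of those tested, beside 10.0% and 29.5% of all tested genes. The list median was 0.30 against -0.26. Insrr, the orphan receptor of the insulin receptor family, rose in Myc/NrasG12V, at 5.92, 1.52 and 2.96 CPM against 0, 0.179 and 0.0909 CPM. The Myc/Akt1 group held 7 reads in all, so the size of the fold is imprecise (log2 difference 1.92, SE 0.34, limma adjusted p = 0.00275). Every Myc/Akt1 value of Insrr lay under the 0.457 CPM of the filter, so it entered the test only through its Myc/NrasG12V level. Its call, 1 of the 2 counted toward Myc/NrasG12V, is therefore a description and not independent support. Igf1r, the receptor of the insulin-like growth factors, was low in both groups, at 1.53, 3.08 and 4.25 CPM against 0.679, 1.11 and 0.4999 CPM, with no overlap. Its log2 difference of 1.12 passed (limma adjusted p = 0.0163), but not without Myc/Akt1 replicate 1 or 3 (limma adjusted p = 0.0571 and 0.0556). Igf2r, which takes up and clears IGF2, was at 140.2 ± 48.5 CPM and 111 ± 30.8 CPM and did not pass (limma adjusted p = 0.481).

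The SGK kinases share AKT's activators and some of its targets. Sgk2 rose in Myc/Akt1, at 65.8, 54.2 and 56.9 CPM against 7.97, 15.7 and 6.93 CPM (log2 difference -2.50, SE 0.28, limma adjusted p = 3.82e-04), and the groups stood well apart. Sgk1, which glucocorticoids and serum induce, was at 40.8, 57.2 and 186 CPM in Myc/NrasG12V and 43.5 to 47.4 CPM in Myc/Akt1. Myc/NrasG12V replicate 3 alone was high, and the log2 difference of 0.73 did not pass (limma adjusted p = 0.250), although DESeq2 called it (log2 difference 1.33, adjusted p = 0.0150). Sgk3 was at 23.7 ± 1.91 CPM and 32.5 ± 5.89 CPM (limma adjusted p = 0.109). Irs4 had 0 reads in all 6 libraries, Irs3 had 3 reads and Foxo6 5 reads in all, and none of these was tested.

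The wider pathway was read from lists chosen by function. Among 31 tested adaptors, receptor inhibitors and PI3K subunits, 3 rose toward Myc/NrasG12V and 8 toward Myc/Akt1, or 7 and 5 with TMM factors. In CPM these were 9.68% and 25.8% of the list, beside 10.0% and 29.5% of all tested genes, and the list median was 0.07 against -0.26. With TMM factors 2331 of all 14365 tested genes were called toward Myc/NrasG12V and 2565 toward Myc/Akt1. The list's largest log2 differences were those of Pik3r1 and Pik3r3. Pik3r1, the p85-alpha subunit that binds IRS proteins, was at 144 ± 37.1 CPM in Myc/Akt1 and 21.9 ± 3.78 CPM in Myc/NrasG12V (log2 difference -2.64, limma adjusted p = 1.30e-04). Pik3r3, a related regulatory subunit, was at 20.8 ± 7.94 CPM and 3.42 ± 1.56 CPM (log2 difference -2.29, limma adjusted p = 0.00144). The regulatory subunit gene Pik3r2, named after its values were seen, had overlapping groups and a log2 difference of 0.07 (95% interval -0.50 to 0.65, limma adjusted p = 0.840). Grb14, an adaptor that inhibits the insulin receptor, and Ide, which degrades insulin, were 3.70- and 2.45-fold higher in Myc/Akt1. Toward Myc/NrasG12V, Sh2b2, an adaptor of the receptor, was 4.97-fold higher (log2 difference 1.68, limma adjusted p = 5.24e-04). Dok1 and Pik3ip1, an inhibitor of PI3K, passed narrowly (limma adjusted p = 0.0371 and 0.0456). Their calls ended when single libraries were left out, for Dok1 any 1 of the 6, and for Pik3ip1 replicate 1 or 3 of the NrasG12V group or replicate 1 or 2 of the Akt1 group (limma adjusted p up to 0.157).

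Among 27 tested genes that switch AKT on or off, 6 had higher levels with NrasG12V and 8 with Akt1, or 8 and 2 with TMM factors. In CPM these were 22.2% and 29.6% of the list, beside 10.0% and 29.5% of all tested genes. The list median was -0.27 against -0.26. All 14365 tested genes had 2331 and 2565 such calls with TMM factors. Members of the mTORC2 complex, which phosphorylates AKT, went both ways. Prr5l, an mTORC2-binding protein, was at 14.6 ± 4.41 CPM in Myc/NrasG12V against 1.12 ± 0.273 CPM, a log2 difference of 2.85 (limma adjusted p = 1.80e-04). Rictor, the defining subunit, was 1.67-fold higher there (limma adjusted p = 0.0142; 0.0664 and 0.0554 without Myc/Akt1 replicate 1 or 2). Mlst8, a subunit of both mTOR complexes, was 2.32-fold higher in Myc/Akt1 (limma adjusted p = 0.0107; 0.0517 without Myc/Akt1 replicate 1). Fkbp5, a glucocorticoid-induced chaperone that brings the phosphatase PHLPP to AKT, was at 329 ± 64.2 CPM in Myc/NrasG12V against 104 ± 37.8 CPM (log2 difference 1.69, limma adjusted p = 0.00159). Inpp4a, a phosphatase of PI3K lipids, was 1.90-fold higher in Myc/NrasG12V (limma adjusted p = 0.00940). Hsp90aa1, a chaperone of AKT, was 3.32-fold higher in Myc/Akt1 (limma adjusted p = 0.00715). The phosphatase genes Phlpp1 and Ppp2ca were called higher in Myc/Akt1 in CPM and not with TMM factors (limma adjusted p = 0.0624 and 0.0621).

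Among 31 tested AKT substrates and mTORC1 genes, 3 rose toward Myc/NrasG12V and 11 toward Myc/Akt1, or 8 and 8 with TMM factors. In CPM these shares, 9.68% and 35.5%, were near the 10.0% and 29.5% of all tested genes, and the list median was -0.41 against -0.26. All 14365 tested genes had 2331 and 2565 such calls with TMM factors. Tbc1d4, the AKT substrate that controls glucose transporter traffic, was at 19.7 ± 5.06 CPM in Myc/Akt1 and 4.13 ± 0.910 CPM in Myc/NrasG12V (log2 difference -2.00, limma adjusted p = 7.84e-04). Tbc1d7, the third subunit of the TSC complex, was 2.67-fold and Gsk3b, a kinase AKT inhibits, 2.14-fold higher in Myc/Akt1. Phb, a prohibitin of mitochondria, was 2.75-fold higher there. Toward Myc/NrasG12V, Pfkfb2, which makes an activator of glycolysis, was 2.17-fold higher (limma adjusted p = 0.0112), and so were Mdm2 (2.07-fold, limma adjusted p = 0.0188) and the autophagy kinase Ulk1 (1.76-fold, limma adjusted p = 0.0296). The Mdm2 call ended when replicate 2 of either group or Myc/NrasG12V replicate 1 was left out, and the Ulk1 call when replicate 1 of either group or Myc/Akt1 replicate 2 was left out (limma adjusted p up to 0.112).

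**Figure D4:**
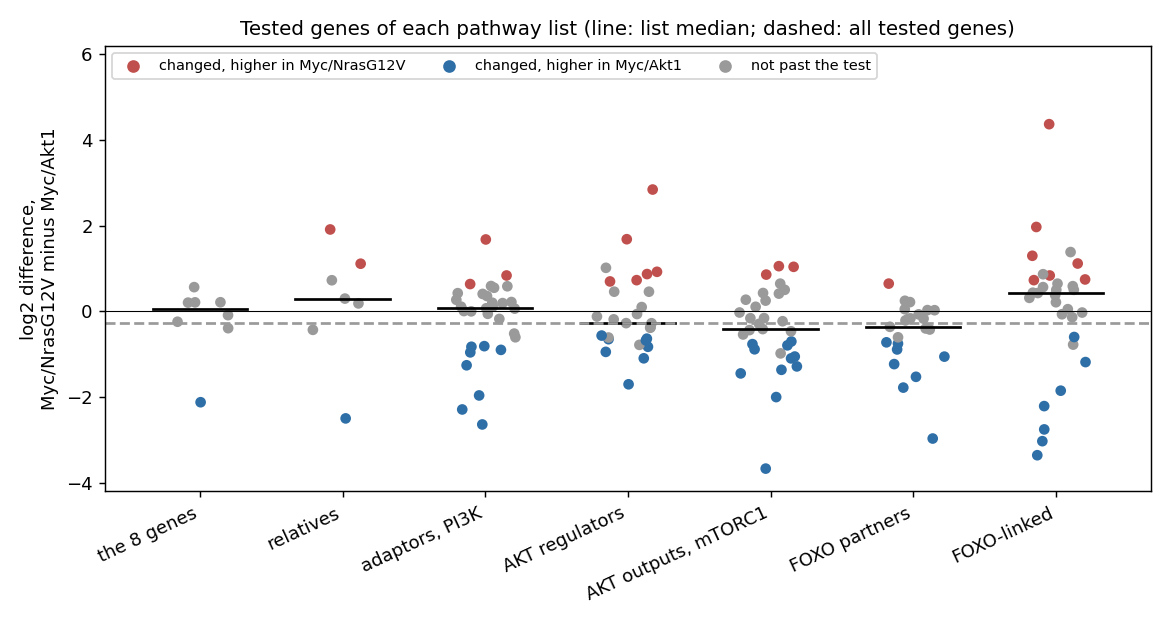
Log2 difference, Myc/NrasG12V minus Myc/Akt1, of every tested gene of the 8 genes and of 6 pathway lists, 1 point per gene, coloured by call. Black lines are list medians and the dashed line is the median of all tested genes. The FOXO-linked list spreads widest, from -3.36 to 4.37, and of the 8 genes only Akt1 is called on this scale.

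Of 23 tested partners of FOXO proteins, 1 rose toward Myc/NrasG12V and 8 toward Myc/Akt1, or 2 and 6 with TMM factors. In CPM these were 4.35% and 34.8% of the list, beside 10.0% and 29.5% of all tested genes, with a list median of -0.36 against -0.26. All 14365 tested genes had 2331 and 2565 such calls with TMM factors. Of the 14-3-3 genes, whose products hold phosphorylated FOXO in the cytoplasm, Ywhah had the lowest adjusted p. It was 2.93-fold higher in Myc/Akt1 (limma adjusted p = 6.27e-04). The other 14-3-3 genes on the list were in part called in the same direction and in part not called. Xpo1, the nuclear exporter, was 2.40-fold higher and Skp2, a ubiquitin ligase subunit that acts on FOXO1, 4.08-fold higher in Myc/Akt1. Foxm1, a forkhead factor of dividing cells that opposes FOXO at shared sites, was at 27.8 ± 7.49 CPM in Myc/Akt1 against 2.65 ± 0.721 CPM (log2 difference -2.97, limma adjusted p = 1.61e-04). Zfp36l1, an RNA-binding protein, was the 1 gene toward Myc/NrasG12V (limma adjusted p = 0.0359). Its call ended when replicate 1 or 2 of either group was left out (limma adjusted p up to 0.128) and with the replicate number as a block (limma adjusted p = 0.0656).

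Genes linked to FOXO factors moved both ways. Of 31 tested, 7 rose in the NrasG12V group and 7 in the Akt1 group, or 13 and 5 with TMM factors, and 17 were not called in CPM. The 7 of each direction were 22.6% of the list, beside 10.0% and 29.5% of all tested genes. With TMM factors 2331 and 2565 of all 14365 tested genes were called in these directions. The median was 0.43 against -0.26 for all tested genes. Insr and Irs2 are on this list too. Toward Myc/NrasG12V went Igfbp1, a circulating IGF-binding protein that insulin represses, at 5102, 3806 and 6369 CPM against 214, 419 and 153 CPM (log2 difference 4.37, SE 0.38, limma adjusted p = 1.37e-04). Within Myc/Akt1 the library with the most Igfbp1, replicate 2, was also the one with the most Irs2. Within Myc/NrasG12V these were different libraries, replicate 3 for Igfbp1 and replicate 1 for Irs2. Cited2, a coactivator, was 2.27-fold higher in Myc/NrasG12V (limma adjusted p = 0.00229), besides Rictor above. Angptl8, at 133, 105 and 71.7 CPM against 15.3, 13.8 and 69.9 CPM, was on the list but is best known as a gene that insulin and feeding induce. Its log2 difference of 1.97 (limma adjusted p = 0.0207) failed when replicate 1 or 2 of either group was left out (limma adjusted p up to 0.0761), and its fold was 3.13, or 7.10 without Myc/Akt1 replicate 3.

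Of the 7 genes toward Myc/Akt1, the 4 of lowest adjusted p were Sod2, Gadd45a, Cat and G6pc. Sod2, the mitochondrial superoxide dismutase, was at 52.3, 65.3 and 61.6 CPM in Myc/NrasG12V and 200.2, 221 and 230.4 CPM in Myc/Akt1 (log2 difference -1.85, limma adjusted p = 1.33e-04). Cat, catalase, was at 408, 428 and 98.5 CPM and 2192, 2058 and 2099 CPM (log2 difference -3.03, limma adjusted p = 0.00213), with Myc/NrasG12V replicate 3 the lowest. The growth arrest gene Gadd45a was 7.59-fold higher in Myc/Akt1 (limma adjusted p = 3.58e-04). G6pc, glucose-6-phosphatase, was at 9.50, 58.3 and 40.8 CPM in Myc/NrasG12V and at 179.8, 301 and 512 CPM in Myc/Akt1 (log2 difference -3.36, SE 0.61, limma adjusted p = 0.00334). Igfbp1 and G6pc, both textbook genes that insulin represses through FOXO1, thus lay at opposite ends of the list, and neither call changed in the 18 alternatives tried. Pck1, which encodes another enzyme of glucose production that insulin represses, was named after its values were seen. It was at 964, 1311 and 2661 CPM in Myc/NrasG12V and 427, 739.7 and 709 CPM in Myc/Akt1, and so lay on the side of Igfbp1 and not of G6pc (log2 difference 1.30, limma adjusted p = 0.0287). Its call failed without Myc/NrasG12V replicate 2 or without any 1 Myc/Akt1 library (limma adjusted p 0.0504 to 0.110), and its 2.63-fold difference was 1.82-fold without Myc/NrasG12V replicate 3.

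**Figure D5:**
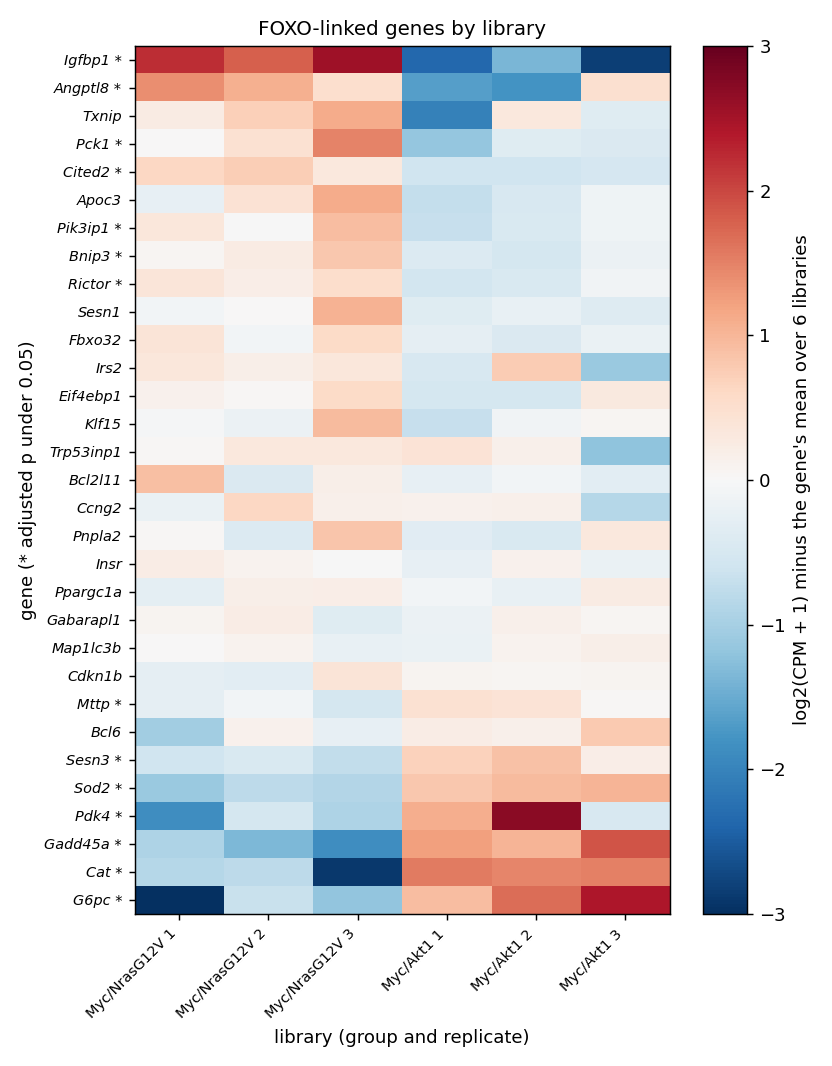
Level of each of 31 tested FOXO-linked genes in each library as log2(CPM + 1) minus the gene's mean over 6 libraries, in colour from -3 to 3, with genes ordered by group difference and an asterisk on those with an adjusted p under 0.05. Igfbp1 at the top is high in all Myc/NrasG12V libraries and G6pc at the bottom in all Myc/Akt1 libraries, while Insr and Irs2 lie between them.

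Promoters were searched for letters that FOXO proteins can bind, and those of Akt1, Irs1 and Irs2, the genes of the 8 with a match, are shown beside those of Igfbp1 and G6pc. Each window is the 250 bases before the RefSeq start (GRCm38.p6), 5' to 3' on the gene's strand, with matches in capitals. The letters searched were CAAAACA, the core of the insulin response element, and GTAAACA, the forkhead core, on both strands, so that a match on the opposite strand reads TGTTTTG or TGTTTAC, and no bases of 2 matches overlapped. Windows were found for 6 of the 8 genes (not Insr and Foxo4), 10 windows in all, and 3 of them held a match. Positions count back from the start, with -1 the base before it. Akt1 (chr12:112674885-112675134, minus strand, 1 of its 2 windows) held TGTTTAC at -161, Irs1 (chr1:82291440-82291689, minus strand) held TGTTTTG at -111 and -32, and Irs2 (chr8:11008930-11009179, minus strand) held TGTTTTG at -37. Igfbp1 (chr11:7197537-7197786, plus strand) held CAAAACA at -108 and G6pc (chr11:101367466-101367715, plus strand) TGTTTTG at -174.
Akt1: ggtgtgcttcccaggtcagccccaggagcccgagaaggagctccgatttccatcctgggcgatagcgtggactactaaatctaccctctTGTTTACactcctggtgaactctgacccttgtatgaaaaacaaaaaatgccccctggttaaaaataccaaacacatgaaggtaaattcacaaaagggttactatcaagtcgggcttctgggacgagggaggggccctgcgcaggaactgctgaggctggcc
Irs1: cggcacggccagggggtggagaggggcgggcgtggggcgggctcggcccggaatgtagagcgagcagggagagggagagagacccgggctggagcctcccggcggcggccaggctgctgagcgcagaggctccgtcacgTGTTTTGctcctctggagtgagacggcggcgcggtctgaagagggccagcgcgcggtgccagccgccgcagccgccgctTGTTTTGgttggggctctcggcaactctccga
Irs2: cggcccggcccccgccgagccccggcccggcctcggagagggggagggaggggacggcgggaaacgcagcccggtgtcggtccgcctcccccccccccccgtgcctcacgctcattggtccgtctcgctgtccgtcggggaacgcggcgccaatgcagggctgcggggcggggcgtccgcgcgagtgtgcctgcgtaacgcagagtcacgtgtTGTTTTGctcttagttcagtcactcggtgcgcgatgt
Igfbp1: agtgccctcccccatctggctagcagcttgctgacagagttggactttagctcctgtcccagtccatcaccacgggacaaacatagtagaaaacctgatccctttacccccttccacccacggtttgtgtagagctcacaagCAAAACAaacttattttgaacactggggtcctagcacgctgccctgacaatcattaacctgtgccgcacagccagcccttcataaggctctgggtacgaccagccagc
G6pc: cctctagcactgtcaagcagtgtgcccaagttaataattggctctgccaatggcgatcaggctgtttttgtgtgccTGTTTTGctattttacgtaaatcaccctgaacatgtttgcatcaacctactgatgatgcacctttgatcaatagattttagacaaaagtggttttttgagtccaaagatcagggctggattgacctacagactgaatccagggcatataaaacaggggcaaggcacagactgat

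No match was found in the windows of Akt2, Foxo1 and Foxo3. Among 32851 RefSeq promoter windows of the same length, 5.56% held CAAAACA, 3.17% held GTAAACA and 8.51% held either, against 7 of 30 windows of the FOXO-linked list. No test was made of these counts. Igfbp1 and G6pc each carried 1 match to the same letters and differed in opposite directions. Irs1 and Irs2, with matches of the same letters near the RefSeq start, did not pass the test. The Irs2 window begins at 11008930, beyond the gene's end at 11008458 in the coordinates given above, so its distance holds for the RefSeq start alone. A match is a description of the letters and not a measured binding site, and the delivered Akt1 cannot be assumed to carry the window shown for the resident gene.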

How the data were processed

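RNA-seq was of poly(A) RNA from 6 liver tumour samples, read single-end from strand-marking libraries, per the labels' protocols. The deposited values are CPM. Build GRCm38 and the tools edgeR 3.22.5, STAR 2.6.1c and Subread 1.6.3 are listed by the submitters' processing notes. Annotation release, strand setting and treatment of multi-mapping are not given in the sources used here. Every value was a whole multiple of the value of 1 read (0.0359 to 0.0559 CPM; 100% within 0.01 read), so whole reads were recovered.

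Of 39179 genes, 14365 passed filterByExpr (0.457 CPM in 3 libraries, 15 reads in all). Groups were compared with limma 3.58.1 (trend, two-sided) on log2(CPM + 1) with Benjamini-Hochberg adjustment over all tested genes and a threshold of 0.05. Fold values are ratios of mean CPM. Lengths and coordinates came from GENCODE M21 (GRCm38; 37607 identifiers matched), promoters from RefSeq. R 4.3.3, edgeR 4.0.16 and DESeq2 1.42.0 were used for alternatives on recovered reads: edgeR called 4893 genes and DESeq2 5543.

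The 8 genes, the lists and the tests were chosen with earlier results of these data known. Genes named were the 8, the relatives (some list genes are not reported here by name), up to 4 called genes of lowest adjusted p per list and direction, and the 3 genes most like each called member with a mean of at least 5 CPM, besides 2 genes named after their values were seen. Lists are described by counts and medians, with no set test. Of 24 FOXO partner genes and 10 erythroid genes, Prmt1 and Ahsp were not found under those symbols.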

Additional observations from a re-analysis of the deposited data

How the results depend on the processing

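Akt1 kept its call and direction in all 18 alternatives tried (log2 difference -2.35 to -1.75). The number of the 8 genes that changed was 1 and became 2 with TMM factors, upper-quartile factors or DESeq2, each time by Insr (log2 difference 0.53, 0.58 and 0.54, adjusted p = 0.0483, 0.0314 and 0.0411). Without single libraries that number was 1 to 2, the second gene being Irs2 without Myc/Akt1 replicate 2, and the log2 difference of Irs2 ran from 0.15 to 1.09. Scaling turned the sign of Foxo1, which became 0.071 with TMM, 0.076 with median-of-ratios and 0.12 with upper-quartile scaling, 0.056 with edgeR and 0.062 with DESeq2. It also turned Foxo4, to 0.22, 0.22, 0.27, 0.20 and 0.21 in the same order, and over single libraries left out Foxo4 ran from -0.28 to 0.04. Neither gene was called in any of those fits. Akt2, Irs1 and Foxo3 were not called in any of the 18 alternatives. The cause of the changes with scaling was not tested.

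Counts of changed list genes moved with scaling and with libraries left out. Over all tested genes, calls toward Myc/NrasG12V were 1437 in CPM and 2331 with TMM factors, and calls toward Myc/Akt1 4240 and 2565. DESeq2 called 2752 of all tested genes toward Myc/NrasG12V and 2791 toward Myc/Akt1. Higher in Myc/NrasG12V, the adaptor and PI3K list had 3, or 7 to 9 with the 3 scaling factors and 1 to 4 without single libraries. With DESeq2 it had 10. AKT regulators had 6, or 8 and 3 to 7, AKT outputs 3, or 8 and 1 to 5, FOXO partners 1, or 2 to 3 and 0 to 1, and FOXO-linked genes 7, or 12 to 13 and 2 to 7 (15 with DESeq2). Higher in Myc/Akt1, the same lists had 8, 8, 11, 8 and 7, or 5, 2, 6 to 8, 6 and 5 with the scaling factors and 7 to 8, 3 to 9, 10 to 12, 7 to 8 and 5 to 7 without single libraries. Over single libraries left out Pik3r2, not called in any, ran from -0.12 to 0.27. Relatives had 2 higher in Myc/NrasG12V, or 1 without Myc/Akt1 replicate 1 or 3 and 3 with DESeq2. With no filter beyond 1 read the adaptor list had 1 and FOXO partners 0 higher in Myc/NrasG12V.

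Libraries of the 2 groups share replicate numbers, and with 3 libraries per group the check made here cannot settle whether these pair them. The correlation of same-numbered libraries in their deviations from the group means ran from -0.0812 to 0.113. By this measure 4 of 6 libraries correlated best with their own number. With the replicate number as a block 5530 genes changed in place of 5677, the 1 changed gene of the 8 stayed Akt1, and no call of the other 7 changed. Among the list genes named, the block ended the calls of Dok1 (limma adjusted p = 0.0639) and Zfp36l1 (limma adjusted p = 0.0656), so FOXO partners had 0 higher in Myc/NrasG12V. Depth limits Irs3, Irs4, Foxo6 and, in Myc/Akt1, Insrr, with 7 reads or fewer per group.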
